A study of Mus musculus with 48 samples.

Results

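Complement is a cascade of plasma and cell-bound proteins, and 9 of its genes are described here across splenic monocytes, red pulp macrophage precursors (pre-RPMs), and red pulp macrophages (RPMs). The genes were chosen by name out of the 54735 in the count files. They are C1qa, C1qb, and C1qc, which encode the 3 chains of C1q; C3, C4b, and C6; Cfp, which encodes properdin; and C3ar1 and C5ar1, the receptors for the anaphylatoxins C3a and C5a. RNA was measured in 24 libraries, in 6 groups of 4, from WT Balb/c mice and from mice labelled Il1rl1-/- on a Balb/c background. Il1rl1 encodes the receptor for IL-33. All mice were male and 10 weeks old, none is labelled as treated, and every library came from 1 mouse. Monocytes were sorted from spleen as Ly6G-low CD11b-high cells negative for F4/80, pre-RPMs as Ly6G-low CD11b-high cells with low F4/80, and RPMs as Ly6G-low cells with low or no CD11b and high F4/80. The same mouse gave all 3 cell types of a number within a genotype. The other 24 of the 48 samples, which measured chromatin accessibility, were not analysed here.

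C1q binds antibody-coated surfaces, phosphatidylserine-bearing cells, and debris, and it starts the classical pathway with the proteases C1r and C1s, which cleave C4 and C2. The pathways meet at C3, whose cleavage coats targets for phagocytosis and releases C3a, and properdin stabilizes the alternative pathway convertase that amplifies this step. C6 belongs to the terminal components that assemble into the membrane attack complex. Most plasma complement is made by the liver, whereas C1q comes mainly from macrophages and other myeloid cells. RPMs are the macrophages that clear aged erythrocytes from the blood and recycle their iron.

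The total count per library ranged from 3562367 to 6559454, and a single gene, Gm42418, took 24.4% to 38.8% of it. Levels are given as CPM, that is, counts scaled to library size after TMM normalization, and a count of 3 corresponded to 0.457 to 0.842 CPM before that scaling. Counts of Il1rl1 itself were 12 to 28 in WT monocytes and 51 to 73 in monocytes labelled Il1rl1-/-, and 13 to 24 and 42 to 76 in the corresponding pre-RPMs. They were thus higher in the libraries labelled as lacking it, while in RPMs they were 5 to 13 and 1 to 7. Reads were counted over every exon of the gene and the exons deleted in the mutant are not given in the sources used here, so these counts do not check the genotype, and all genotype directions below follow the labels. The 9 red pulp macrophage markers, which include Spic, Vcam1, Hmox1, and Slc40a1, summed to between 6439 and 8961 CPM in the 8 RPM libraries and to between 44.3 and 348.9 CPM in the 16 others. Monocyte markers summed to between 404.8 and 1490 CPM in monocytes and pre-RPMs and to at most 59.4 CPM in RPMs. The monocyte libraries also held markers of NK cells (465.8 to 1744 CPM, against 7.68 to 130 CPM in the other 16) and of neutrophils (759.4 to 2462 CPM, against 2.19 to 393.5 CPM). The marker sums of 4 other cell types were higher in all 8 RPM libraries than in the other 16. Erythroid markers, which are mostly globins, reached between 828.1 and 22120 CPM in RPMs and at most 564.6 CPM elsewhere. Fibroblast and endothelial markers summed to 290.4 to 361.7 CPM against at most 29.6 CPM, eosinophil markers to 273.5 to 398.9 CPM against at most 80.3 CPM, and T cell markers to 41.4 to 85.3 CPM against at most 39.1 CPM. Some of these sums rest on few markers. Of 6 eosinophil markers, 2 were above 3 counts in every library of each RPM group, against 4 in each pre-RPM group. Of 8 fibroblast and endothelial markers, 4 were so in WT RPMs and 3 in RPMs labelled Il1rl1-/-. The part of these 4 marker lists in the RPM values below was not tested. In bulk libraries, fewer cells of a type and less RNA per cell cannot be told apart.

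The members fell into 2 sets by cell type, with 1 gene left over. C1qa, C1qb, C1qc, C6, and Cfp were highest in RPMs of both genotypes, C3, C3ar1, and C5ar1 were lowest there, and C4b was low everywhere. Between cell types, a gene was called when the adjusted p (Benjamini-Hochberg, over all genes tested, from the quasi-likelihood F test of edgeR) was under 0.01 and the absolute log2 fold change was above 1. Of the 9 members, 8 could be tested between WT RPMs and WT pre-RPMs, and all 8 were called, 5 higher and 3 lower in RPMs. Over all 11239 genes tested in that comparison, 24.7% were called, 14% higher and 10.7% lower. Between WT RPMs and WT monocytes the same 8 were called in the same directions, against 23.9% of all genes, 13.4% higher and 10.5% lower. In the libraries labelled Il1rl1-/-, the 8 were again called, 5 higher and 3 lower in RPMs, against 26% of all genes relative to pre-RPMs (14.5% higher, 11.5% lower) and 25.9% relative to monocytes (14.3% higher, 11.6% lower). These counts lean on the filter on low counts, which under the Il1rl1-/- label kept C1qb, C1qc, and C6 through the RPM libraries alone and C3ar1 and C5ar1 through the earlier cells alone, so that those 5 had to differ once tested. In WT the same held for all 5 relative to monocytes and for C3ar1 and C5ar1 relative to pre-RPMs. Relative to WT pre-RPMs, C1qb, C1qc, and C6 reached the cutoff of the filter in only 1 pre-RPM library, replicate 3. They too were thus kept through the RPM libraries, where they are high. Both sets of comparisons use the same RPM libraries.

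**Figure D1:**
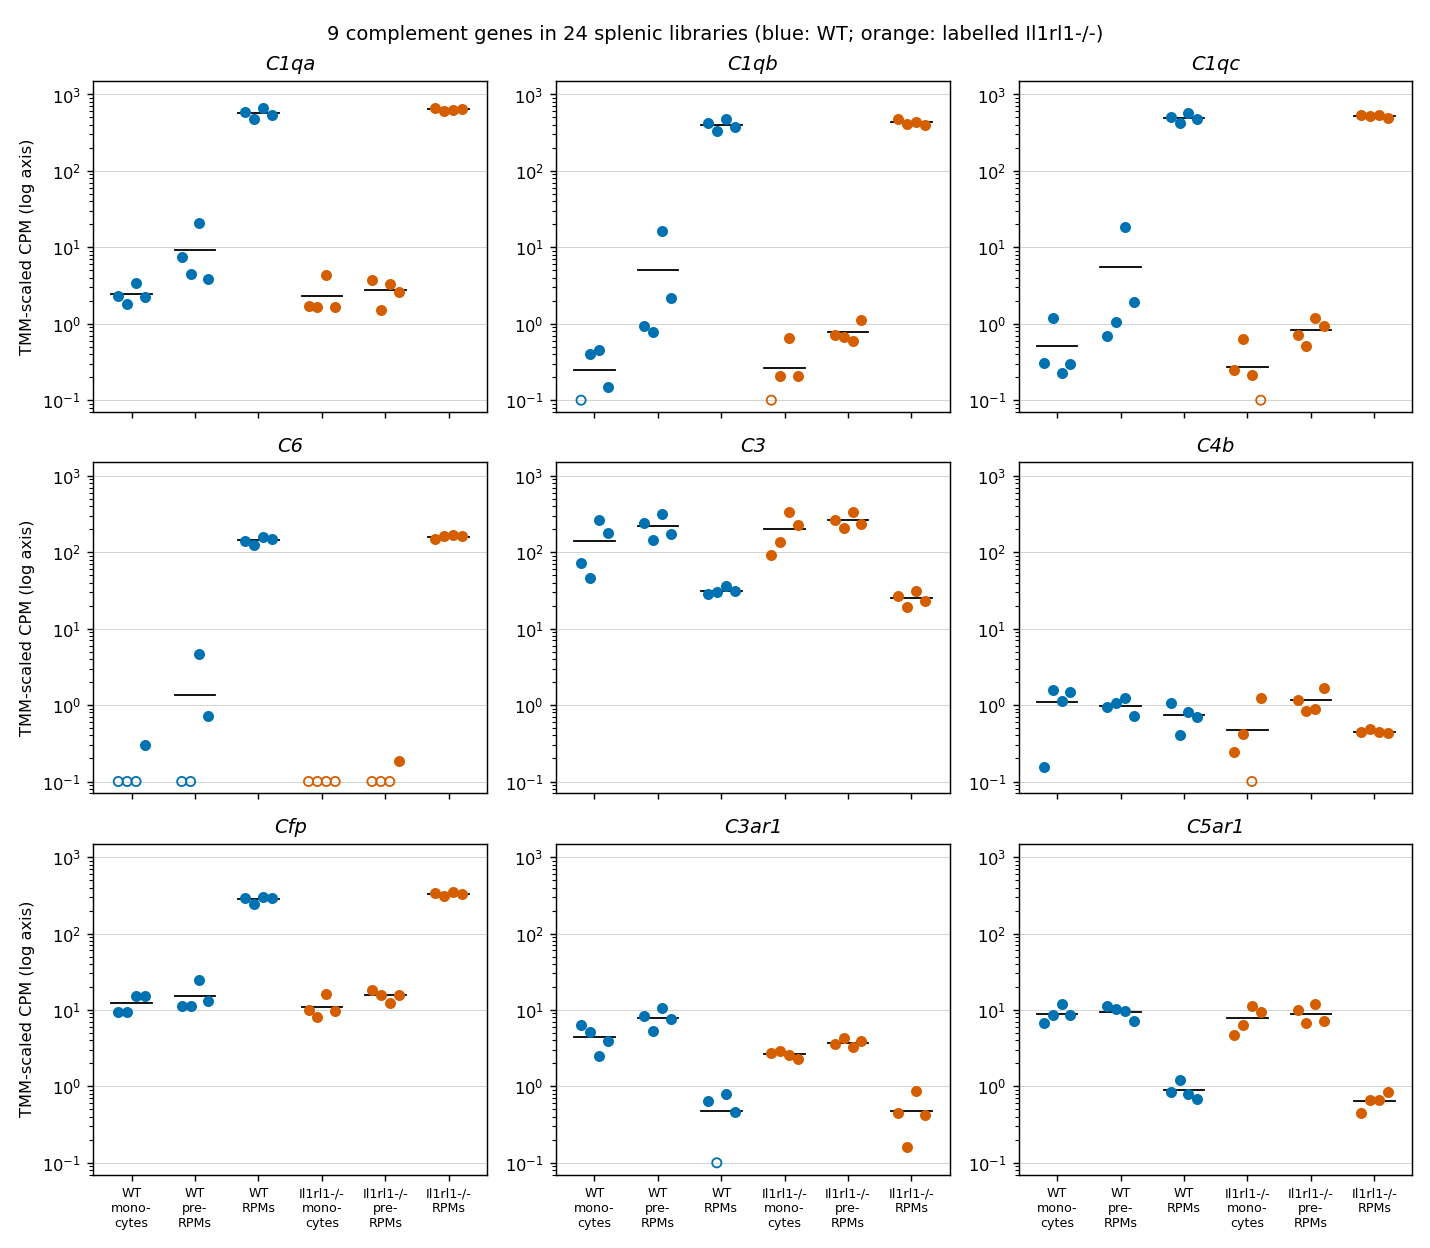
TMM-scaled CPM (log axis) of the 9 genes in each of 24 libraries, with WT in blue and libraries labelled Il1rl1-/- in orange, a bar at each group's mean, and an open circle at the axis floor for a library with 0 counts. C1qa, C1qb, C1qc, C6, and Cfp stand above 100 CPM in all 8 RPM libraries, C3 stands below 40 CPM there, and the highest WT pre-RPM point of the C1q genes and C6 is always replicate 3.

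The 3 C1q genes lie side by side on the minus strand of chromosome 4 of GRCm38, C1qb from 136880129 to 136886187, C1qc from 136889804 to 136893065, and C1qa from 136895917 to 136898803, within 18675 bases. C6 is on the plus strand of chromosome 15 from 4727175 to 4814967, and Cfp on the minus strand of chromosome X from 20925454 to 20931555. The exons of none of the 9 members overlapped those of another gene in the annotation used for counting. The bases just upstream of the start are shown for the genes that were highest in RPMs and that the promoter table covers, because these genes were all higher in RPMs. They are from RefSeq on GRCm38.p6, read 5′ to 3′ along the gene, and stop before the gene as annotated in the count files. Capitals mark 3 words, searched on either strand. The word GAGGAA is a PU-box core, bound by PU.1 and its relative SPIC. The word TGCTGA is part of the recognition element of MAF proteins. The word AGATAA is bound by erythroid factors of the GATA family.
C1qb, 250 bases at chr4:136886201-136886450 (minus strand): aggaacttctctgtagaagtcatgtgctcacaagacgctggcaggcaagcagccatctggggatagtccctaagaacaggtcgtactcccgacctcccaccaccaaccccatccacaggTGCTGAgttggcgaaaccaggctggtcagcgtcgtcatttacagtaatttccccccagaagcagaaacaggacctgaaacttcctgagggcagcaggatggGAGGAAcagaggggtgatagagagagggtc
C1qc, 99 bases at chr4:136893066-136893164 (minus strand): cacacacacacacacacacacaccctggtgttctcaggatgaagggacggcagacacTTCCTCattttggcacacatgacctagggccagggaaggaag
C6, 215 bases at chr15:4726960-4727174 (plus strand): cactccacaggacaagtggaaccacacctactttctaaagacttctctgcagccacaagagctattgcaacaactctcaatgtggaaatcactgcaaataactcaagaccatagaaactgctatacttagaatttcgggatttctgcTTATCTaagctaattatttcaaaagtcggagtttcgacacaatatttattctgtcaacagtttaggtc
Cfp, 250 bases at chrX:20931556-20931805 (minus strand): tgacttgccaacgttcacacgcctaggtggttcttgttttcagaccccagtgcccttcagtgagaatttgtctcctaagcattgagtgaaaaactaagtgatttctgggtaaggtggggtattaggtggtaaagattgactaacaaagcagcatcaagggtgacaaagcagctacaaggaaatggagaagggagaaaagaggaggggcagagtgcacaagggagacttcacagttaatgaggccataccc
In the full windows of 250 bases before the RefSeq start, GAGGAA occurred in C1qb (30 to 25 bases before the start) and C1qc (193 to 188), TGCTGA in C1qb (131 to 126), and AGATAA in C6 (103 to 98), and the Cfp window held none of the 3 words. Among all 32851 windows of this length, 23.3% held GAGGAA, 16.1% TGCTGA, and 9.99% AGATAA, so that each word is common. Of the 3 members that were lowest in RPMs, C3, C3ar1, and C5ar1 each held TGCTGA, and C3ar1 also held AGATAA. The words overlapped each other in none of these windows.

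C1qa, which encodes the A chain, was the most abundant member per length in RPMs. Its CPM in WT RPMs of mice 1 to 4 was 598.1, 473.5, 675.5, and 535.6, and in RPMs labelled Il1rl1-/- it was 669.6, 608, 632.6, and 638.7. In WT pre-RPMs it was 7.44, 4.46, 20.8, and 3.81, and in pre-RPMs labelled Il1rl1-/- it was 3.78, 1.53, 3.27, and 2.61. Monocytes held 1.80 to 3.44 CPM in WT and 1.65 to 4.31 CPM under the Il1rl1-/- label. All 8 RPM libraries thus lay above every other library. WT pre-RPMs, the next group, lay above WT monocytes and above pre-RPMs labelled Il1rl1-/- in all 4 libraries, but overlapped monocytes labelled Il1rl1-/-. The log2 fold change from pre-RPMs to RPMs was 5.92 (SE 0.41, adjusted p = 2.88e-08 by edgeR) in WT and 7.82 (SE 0.18, adjusted p = 4.99e-14 by edgeR) under the Il1rl1-/- label. From monocytes to RPMs it was 7.85 (SE 0.23) and 8.07 (SE 0.26).

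C1qb and C1qc, the genes of the B and C chains, were likewise highest in RPMs and next in WT pre-RPMs, at lower counts in the earlier cells, but their WT pre-RPM range overlapped that of pre-RPMs labelled Il1rl1-/-. C1qb was at 427.3, 330.5, 475.4, and 378.6 CPM in WT RPMs and at 475.9, 406.6, 438.8, and 400.8 CPM in RPMs labelled Il1rl1-/-. In WT pre-RPMs it was at 0.930, 0.788, 16.2, and 2.14 CPM, which rest on 4, 3, 66, and 9 counts. Pre-RPMs labelled Il1rl1-/- held 2 to 6 counts of C1qb and 3 to 5 of C1qc. C1qc was at 513.5, 421.2, 576.9, and 475.8 CPM in WT RPMs and at 541.8, 522.5, 539, and 497.9 CPM in RPMs labelled Il1rl1-/-. In WT pre-RPMs, C1qc was at 0.698, 1.05, 18.6, and 1.90 CPM, and no monocyte library of either genotype held more than 3 counts of C1qb or 6 of C1qc. The log2 fold change from pre-RPMs to RPMs was 6.28 (SE 0.58, adjusted p = 5.85e-07 by edgeR) for C1qb and 6.43 (SE 0.64, adjusted p = 1.07e-06 by edgeR) for C1qc in WT. In the libraries labelled Il1rl1-/- it was 8.98 (SE 0.17) and 9.26 (SE 0.17), both with an edgeR adjusted p of 9.58e-15. Under that label the filter kept both genes through the RPM libraries alone, so they had to differ once tested. The same held relative to monocytes in both genotypes. Of the WT pre-RPM libraries, only replicate 3 reached the cutoff of the filter for either gene. Relative to monocytes, C1qb rose by 10.65 (SE 0.35) in WT and 10.50 (SE 0.29) under the Il1rl1-/- label, and C1qc rose by 9.90 (SE 0.33) and 10.78 (SE 0.29), all on the log2 scale. With so few counts in monocytes, single libraries mattered: C1qc rose by 10.63 without WT monocyte replicate 2, and under the Il1rl1-/- label C1qb rose by 11.29 without monocyte replicate 3 and C1qc by 11.53 without monocyte replicate 2.

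The 3 chains are assembled in equal numbers in the C1q protein. Per kilobase of exon, C1qa was at 549 ± 83.1, C1qb at 370 ± 57.4, and C1qc at 257 ± 33.9 CPM (mean ± SD, n = 4) in WT RPMs, and at 613 ± 24.4, 396 ± 31.8, and 272 ± 10.4 CPM in RPMs labelled Il1rl1-/-. Over the 8 RPM libraries the ratio of C1qa to C1qb per kilobase stayed between 1.46 and 1.67, and that of C1qc to C1qb between 0.641 and 0.724. C1qa made 46.4% to 49.5%, C1qb 29.7% to 32.1%, and C1qc 20.6% to 22.3% of the 3 chains' level per length in RPMs. In monocytes, where the 3 genes together had 8 to 24 counts per library, C1qa made 63.6% to 93.3% of it, and in pre-RPMs labelled Il1rl1-/- it made 62.3% to 78.1%. WT pre-RPMs 1, 2, 3, and 4 stood at 85.5%, 77.2%, 45%, and 55.3% for C1qa, so that replicate 3 came closest to the C1qa share of RPMs. In that replicate the C1qa share lay below the RPM range, the C1qb share (33.4%) above it, and the C1qc share (21.7%) within it. These shares depend on the annotated exon lengths, and the nearest genes on either side that could be tested were not called: Ephb2 changed by 0.02 (adjusted p = 0.951 by edgeR) and Zbtb40 by 0 (adjusted p = 0.993 by edgeR) on the log2 scale from WT pre-RPMs to WT RPMs.

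C6, a component of the membrane attack complex, was close to undetected outside RPMs. Its CPM was 141, 123.3, 157.4, and 148.9 in WT RPMs and 148.6, 163.1, 167.3, and 161.9 in RPMs labelled Il1rl1-/-. Counts were 0, 0, 0, and 2 in WT monocytes, 0 in all 4 monocyte libraries labelled Il1rl1-/-, 0, 0, 0, and 1 in pre-RPMs labelled Il1rl1-/-, and 0, 0, 19, and 3 in WT pre-RPMs. The RPM libraries held 589 to 998 counts each, and no library of the earlier cells came near them. Relative to monocytes labelled Il1rl1-/-, C6 was at least 981-fold higher in RPMs labelled Il1rl1-/-, against a floor of 3 counts over the group. Relative to pre-RPMs labelled Il1rl1-/-, which held 1 count in all, the ratio of summed counts per scaled library size was 3030 (95% exact interval for counting error 543 to 120000), and relative to WT monocytes, which held 2, the WT ratio was 1600 (442 to 13200). From WT pre-RPMs to WT RPMs the log2 fold change was 6.66 (SE 0.45, adjusted p = 2.46e-08 by edgeR). Only replicate 3 of these pre-RPMs reached the cutoff of the filter on low counts, so C6 was kept there through the RPM libraries.

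Cfp, which encodes properdin, was detected in every library and rose in RPMs by less than the C1q genes. It was at 287.4, 245.2, 300.6, and 288.6 CPM in WT RPMs and at 340.8, 305.3, 350.4, and 326.5 CPM in RPMs labelled Il1rl1-/-. Pre-RPMs stood at 11.2, 11.3, 24.5, and 13.1 CPM in WT and at 18.5, 15.8, 12.5, and 15.5 CPM under the Il1rl1-/- label, and monocytes between 8.20 and 16.1 CPM over both genotypes. The log2 fold change from pre-RPMs to RPMs was 4.18 (SE 0.22, adjusted p = 1.87e-09 by edgeR) in WT and 4.35 (SE 0.12, adjusted p = 3.4e-13 by edgeR) under the Il1rl1-/- label, and from monocytes it was 4.49 (SE 0.21) and 4.91 (SE 0.20).

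**Figure D2:**
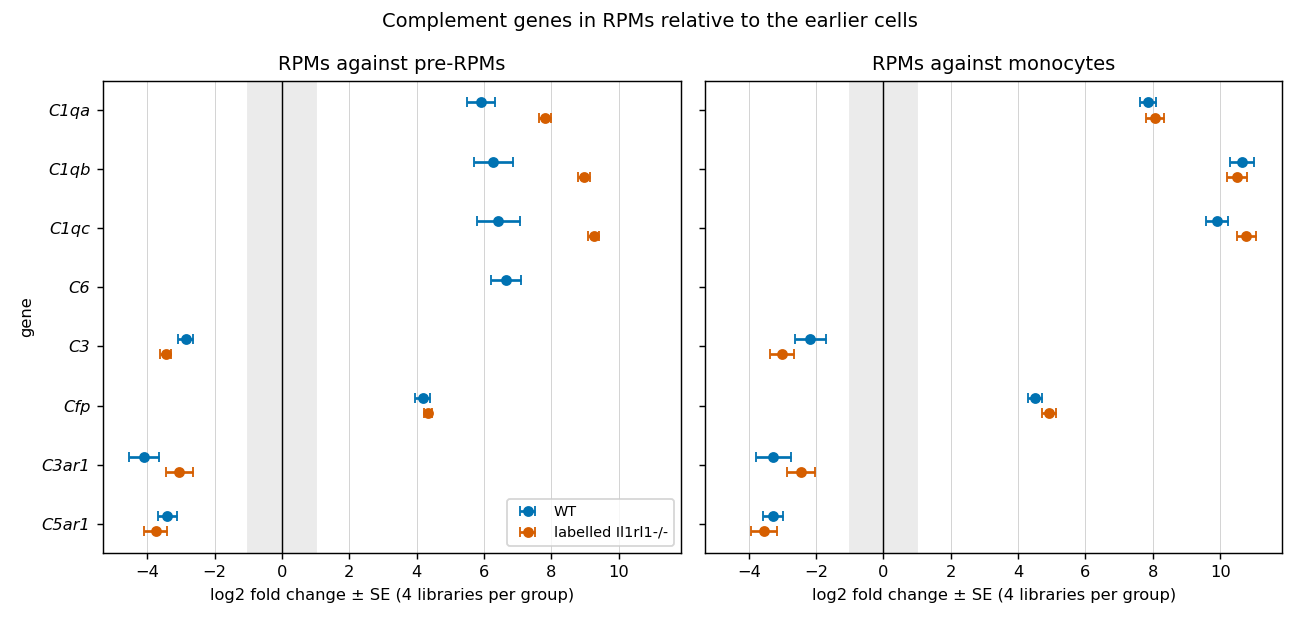
Log2 fold change with its SE from edgeR for the 8 tested members, in RPMs relative to pre-RPMs (left) and to monocytes (right), with WT in blue, libraries labelled Il1rl1-/- in orange, and log2 changes under 1 in gray. C1qa, C1qb, C1qc, C6, and Cfp lie to the right and C3, C3ar1, and C5ar1 to the left in both genotypes, and C6 is drawn only against WT pre-RPMs because the other earlier groups hold 3 counts or fewer.

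C3, the central component of the cascade, ran the other way. It lies on the minus strand of chromosome 17 from 57203970 to 57228136. Its CPM in RPMs was 28.8, 29.9, 36.6, and 30.7 in WT and 26.4, 19.1, 30.9, and 23 under the Il1rl1-/- label. In pre-RPMs it was 244.2, 144.7, 318.5, and 175.5 in WT and 263.7, 208.4, 333.1, and 237.3 under the Il1rl1-/- label. All RPM libraries were thus below every pre-RPM library. C3 fell from pre-RPMs to RPMs, with a log2 fold change of -2.85 (SE 0.22, adjusted p = 7.52e-08 by edgeR) in WT and -3.45 (SE 0.17, adjusted p = 1.29e-10 by edgeR) under the Il1rl1-/- label. Monocytes varied most, at 72.4, 46.1, 267.5, and 176.5 CPM in WT and 93, 137.4, 339.2, and 229.7 CPM under the Il1rl1-/- label.

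The monocyte libraries with the least C3 were those with the most NK cell transcripts. The 6 NK markers summed to 1476, 1744, 523.3, and 963.5 CPM in WT monocytes 1 to 4 and to 1438, 1082, 465.8, and 741.4 CPM in those labelled Il1rl1-/-, so that replicates 1 and 2 had the highest NK sums and the lowest C3 in both genotypes. NK markers were not alone in this. T cell, B cell, and basophil and mast cell markers were also highest in replicates 1 and 2 of both genotypes. Monocyte markers were lowest in them, at 619.8 and 404.8 CPM against 1293 and 951 CPM in WT. Under the Il1rl1-/- label they were at 622.1 and 818.3 CPM against 1324 and 1083 CPM. Neutrophil, plasma cell, and dendritic cell markers did not split this way in both genotypes. Relative to monocytes, C3 fell in RPMs, with a log2 fold change of -2.18 (SE 0.46, adjusted p = 0.00267 by edgeR) in WT and -3.01 (SE 0.35, adjusted p = 1.75e-05 by edgeR) under the Il1rl1-/- label. Without monocyte replicates 1 and 2, the values were -2.84 (SE 0.17) and -3.56 (SE 0.19). NK markers were not absent outside monocytes. Of the 6, 5 were above 3 counts in every WT pre-RPM library and 4 in every WT RPM library. Under the Il1rl1-/- label these numbers were 4 and 3. Klra8, an NK receptor among the 6, was at 0 in all pre-RPM and RPM libraries. The part of the NK transcripts, or of the other markers that split the monocyte libraries, in the level of C3 was not tested. The WT value missed the threshold without WT RPM replicate 1 (log2 change -2.12, adjusted p = 0.0115 by edgeR) or replicate 4 (-2.15, adjusted p = 0.0116 by edgeR).

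The receptors C3ar1 and C5ar1, through which C3a and C5a activate and attract myeloid cells, also fell in RPMs. C3ar1 lies on chromosome 6 from 122847138 to 122856161 and C5ar1 on chromosome 7 from 16246743 to 16259540, both on the minus strand. C3ar1 had 3, 0, 3, and 2 counts in WT RPMs and 2, 1, 4, and 2 in RPMs labelled Il1rl1-/-, against 36, 20, 43, and 32 in WT pre-RPMs and 15, 25, 11, and 21 in pre-RPMs labelled Il1rl1-/-. C5ar1 had 3 to 6 counts in WT RPMs and 2 to 4 in RPMs labelled Il1rl1-/-, against 30 to 48 and 38 to 42 in the corresponding pre-RPMs. The RPM libraries of both genes lay below all others. From pre-RPMs to RPMs, the log2 fold change of C3ar1 was -4.09 (SE 0.44, adjusted p = 2.82e-06 by edgeR) in WT and -3.04 (SE 0.39, adjusted p = 8.14e-06 by edgeR) under the Il1rl1-/- label, and that of C5ar1 -3.40 (SE 0.29, adjusted p = 2.63e-07 by edgeR) and -3.74 (SE 0.34, adjusted p = 1.67e-07 by edgeR). From monocytes to RPMs, the values were -3.27 (SE 0.53) and -2.45 (SE 0.42) for C3ar1, and -3.28 (SE 0.30) and -3.55 (SE 0.39) for C5ar1. In all of these comparisons the filter kept both genes through the earlier cells alone, so they had to differ once tested. C5ar1 was even across the earlier cells, at 8.94 ± 2.17 and 9.53 ± 1.72 CPM (mean ± SD, n = 4) in WT monocytes and pre-RPMs and 7.96 ± 3.04 and 8.93 ± 2.44 CPM in those labelled Il1rl1-/-.

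C4b, which encodes the C4 component cleaved by the classical and lectin pathways, was at the limit of detection. It lies on chromosome 17 from 34728380 to 34743882, with its near-identical paralog C4a 65209 bases away, and reads that match both could be lost or split between them, so that its level is uncertain. Counts were 0 to 10 over the 24 libraries, with a highest group mean of 1.15 ± 0.382 CPM (SD, n = 4) in pre-RPMs labelled Il1rl1-/- and a lowest of 0.451 ± 0.0279 CPM in RPMs labelled Il1rl1-/-. It did not pass the filter on low counts in any comparison, and the groups next to each other in level overlapped throughout. Under the Il1rl1-/- label, pre-RPMs (0.848 to 1.68 CPM, 22 counts in all) did not overlap RPMs (0.426 to 0.490 CPM, 9 counts in all), a difference that was not tested. C4a had at most 6 counts in any library.

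In the earlier step, from monocytes to pre-RPMs, none of the members tested was called, and those with the largest ratios had too few counts to be tested. The filter kept 5 of the 9, namely C1qa, C3, Cfp, C3ar1, and C5ar1, and edgeR called 0 of the 5 in WT (3.57% of all genes called) and 0 of the 5 under the Il1rl1-/- label (4.85%). DESeq2 also called 0 members in each. At an unadjusted p under 0.05 there were 2 members in WT, C1qa and C3ar1, against 3540 of all 11091 genes tested. Under the Il1rl1-/- label there were 2, Cfp and C3ar1, against 3425 of 11196. The largest value was that of C1qa in WT, 1.91 (SE 0.52, adjusted p = 0.0329 by edgeR) on the log2 scale, with all 4 pre-RPM libraries above all 4 monocyte libraries. It was 1.11 (adjusted p = 0.0635 by edgeR) without WT pre-RPM replicate 3. In the libraries labelled Il1rl1-/- the value for C1qa was 0.21 (SE 0.41, adjusted p = 0.784 by edgeR), and the groups overlapped. The median over the 5 was 0.65 in WT and 0.39 under the Il1rl1-/- label, with all genes at 0.01 and 0. When all 24 libraries were fitted together, 3 members passed in WT, and with every gene that had at least 1 count, 4 passed, among them C1qa in both. Calls over all genes also rose in those fits, from 396 to 772 and 1094. Among the members not tested, C1qb went from 5 counts over the 4 WT monocyte libraries to 82 over the 4 WT pre-RPM libraries, C1qc from 11 to 91, and C6 from 2 to 22, with 66, 76, and 19 of the pre-RPM counts in replicate 3. For C6 the ratio of summed counts per scaled library size was 15.2 (95% exact interval for counting error 3.73 to 133). All 4 WT pre-RPM libraries were above all WT monocyte libraries for C1qb (0.788 to 16.2 against 0 to 0.459 CPM), while the ranges overlapped for C1qc and C6. Under the Il1rl1-/- label C1qb and C1qc each went from 5 counts to 15. The value for C3 was 0.65 (SE 0.45) in WT and became -0.01 (SE 0.25) without monocyte replicates 1 and 2.

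A single library, WT pre-RPM replicate 3, carried most of the C1q and C6 counts of its group. It held 85, 66, and 76 counts of C1qa, C1qb, and C1qc and 19 of C6, against 16 to 32, 3 to 9, 3 to 8, and 0 to 3 in the other 3 WT pre-RPM libraries. The erythroid markers summed to 564.6 CPM in it, against 10.2 to 84.8 CPM in the other 3, and the basophil and mast cell markers to 57.9 against 11.3 to 28.1 CPM. As a share of the WT RPM mean, it had 3.65% for C1qa, 4.02% for C1qb, 3.75% for C1qc, and 3.27% for C6, while the other 3 had at most 1.3%, 0.532%, 0.383%, and 0.501%. Of the 9 red pulp macrophage markers, 7 were above the range of the other 3 libraries in it, namely Mertk at 1.08% of the WT RPM mean, Slc40a1 at 1.71%, Vcam1 at 2.6%, Axl at 3.98%, Cd163 at 4.19%, Hmox1 at 6.25%, and Treml4 at 21.1%. The remaining markers, Spic (4.56%) and Adgre1 (25.7%), which encodes the sorted marker F4/80, lay within that range. Fcna stood at 2.94% against at most 0.749%, and Hbb-bs, a globin, at 4.87% against at most 0.928%. Whether these transcripts have a part in its C1q and C6 counts was not tested. Without this library, the log2 fold change from WT pre-RPMs to WT RPMs was 6.70 for C1qa, 8.20 for C1qb, 8.59 for C1qc, and 8.98 for C6, each further from 0 than with it, and all 8 members were still called.

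**Figure D3:**
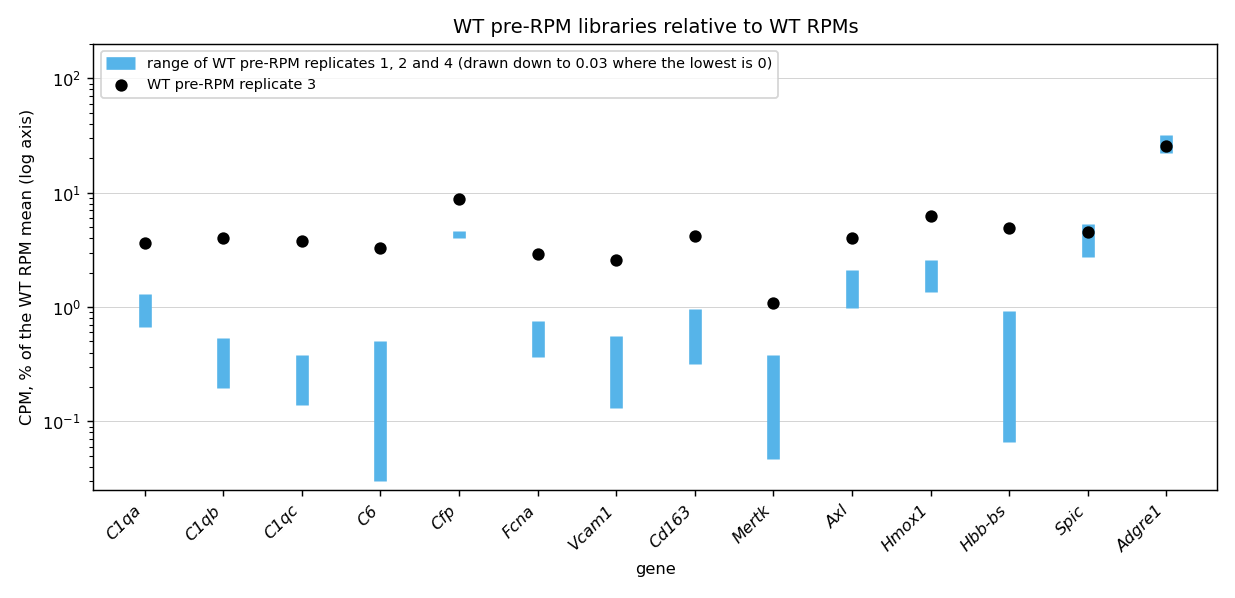
CPM of 14 genes in WT pre-RPM libraries as a percentage of the WT RPM mean (log axis), with replicate 3 as a black point and the range of the other 3 replicates as a blue bar, drawn down to the axis floor for C6, whose lowest value is 0. Replicate 3 lies above the bar for the C1q genes, C6, Cfp, and most RPM genes, between 3.65% and 4.02% for the 3 C1q genes, and within the bar for Spic and Adgre1.

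Between genotypes, a gene was called at an adjusted p under 0.05, and edgeR called none of the members tested, 0 of 5 in monocytes against a background of 0.0614% of all genes, 0 of 5 in pre-RPMs against 0.552%, and 0 of 6 in RPMs against 0.233%. DESeq2 called 0 members in all 3. At an unadjusted p under 0.05 there were 1 in monocytes (C3ar1), 2 in pre-RPMs (C1qa and C3ar1), and 2 in RPMs (Cfp and C3). Over all genes tested, 410 of 11405, 941 of 10698, and 811 of 11150 were under it in those cell types. When mouse number entered as a block, the calls over all genes grew from 7 to 27 in monocytes and from 26 to 81 in RPMs, with 0 members among them, and from 59 to 145 in pre-RPMs, where C1qa was the only member called (log2 difference -1.50, SE 0.32, adjusted p = 0.0276 by edgeR). The median over the members tested was -0.15 for monocytes, -0.13 for pre-RPMs, and 0.12 for RPMs, with all genes at -0.01, 0, and 0.

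Of the 5 members tested in pre-RPMs, C1qa and C3ar1 had the largest genotype values, and both were lower under the Il1rl1-/- label. For C1qa the log2 difference was -1.75 (SE 0.48, adjusted p = 0.163 by edgeR), and for C3ar1 it was -1.07 (SE 0.25, adjusted p = 0.0757 by edgeR). The 2 groups did not overlap for either gene. C1qa was at 3.81 to 20.8 CPM in WT and 1.53 to 3.78 CPM under the Il1rl1-/- label, and C3ar1 at 5.25 to 10.5 and 3.27 to 4.24 CPM. Without WT pre-RPM replicate 3 the values were -0.96 (adjusted p = 0.323 by edgeR) and -0.91 (adjusted p = 0.179 by edgeR). C3ar1 passed the threshold only when WT pre-RPM replicate 2 was left out among the fits with 1 library less, at -1.21 (adjusted p = 0.031 by edgeR). C1qb, C1qc, and C6 were not tested there and had larger ratios, with 82, 91, and 22 counts in the 4 WT pre-RPM libraries against 15, 15, and 1 in those labelled Il1rl1-/-, of which WT replicate 3 held 66, 76, and 19. Markers of 3 other cell types were also lower in all pre-RPM libraries labelled Il1rl1-/- than in the WT ones. The NK markers summed to 63.6 to 130 CPM in WT and 11.7 to 47 CPM under the label, the basophil and mast cell markers to 11.3 to 57.9 and 3.31 to 5.09 CPM, and the B cell markers to 35.2 to 52.2 and 16.4 to 31.5 CPM. Their part in the genotype values was not tested.

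In RPMs the members were close between genotypes. C1qa differed by 0.15 (SE 0.12), C1qb by 0.09 (SE 0.12), C1qc by 0.07 (SE 0.11), and C6 by 0.16 (SE 0.10) on the log2 scale, with edgeR adjusted p-values of 0.849, 0.941, 0.953, and 0.785. Cfp differed by 0.23 (SE 0.10, adjusted p = 0.659 by edgeR), and its 4 RPM libraries labelled Il1rl1-/- all lay above the 4 WT ones. C3 differed by -0.35 (SE 0.15, adjusted p = 0.659 by edgeR). In monocytes, the values ran from -0.79 (C3ar1, SE 0.30) to 0.50 (C3, SE 0.55), with edgeR adjusted p-values of 0.997 and above.

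The difference between genotypes in the change from pre-RPMs to RPMs was tested directly, and edgeR called 0 of 8 members (0.107% of all genes called), as did DESeq2. At an unadjusted p under 0.05 there were 4 members, against 914 of all 12150 genes tested. The 4 were C1qa, C1qb, C1qc, and C6, which all rose more under the Il1rl1-/- label. The difference was 1.92 (SE 0.50, adjusted p = 0.198 by edgeR) for C1qa, 2.71 (SE 0.84, adjusted p = 0.336 by edgeR) for C1qb, and 2.84 (SE 0.89, adjusted p = 0.354 by edgeR) for C1qc on the log2 scale, and the adjusted p for C6 was 0.313. Without WT pre-RPM replicate 3 the differences were 1.13, 0.79, and 0.68, with edgeR adjusted p-values of 0.341, 0.77, and 0.824. For the change from monocytes to pre-RPMs, edgeR called 0 of 5 members and 0% of all genes. At an unadjusted p under 0.05 there was 1 member (C1qa), against 454 of all 11960 genes tested. For the change from monocytes to RPMs it called 0 of 8 members and 0.0318% of all genes. There, 0 members had an unadjusted p under 0.05, against 609 of 12592 genes. DESeq2 called 0 members in both.

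A further 46 complement genes were examined in 4 lists. Of these, 17 had at most 3 counts in every library, among them the proteases C1s1 and Masp1, the terminal components C7 and C9, and the regulators Cfi and C4bp, and Mbl1 and Mbl2 had 0 counts throughout. Of 8 alternative and terminal pathway genes, 0 passed the filter on low counts in any comparison, so C6 was the only terminal component that could be tested in these libraries.

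Among 15 classical and lectin pathway genes, 3 were tested from pre-RPMs to RPMs in each genotype and all 3 were called, 2 higher and 1 lower. Over all genes, 24.7% were called in that step in WT and 26% under the Il1rl1-/- label. The filter kept C1ra in WT and C2 under the Il1rl1-/- label through the RPM libraries alone, so these had to differ once tested. Fcna, which encodes ficolin A, a lectin pathway recognition molecule, rose by 6.36 (SE 0.43, adjusted p = 2.22e-08 by edgeR) in WT and by 7.90 (SE 0.13, adjusted p = 9.58e-15 by edgeR) under the Il1rl1-/- label. At 508.8 ± 54.7 and 558.1 ± 32.3 CPM (SD, n = 4) in RPMs of the 2 genotypes, it lay in the same range as the C1q genes. C1ra, which encodes the protease C1r, rose by 1.62 (SE 0.39, adjusted p = 0.00333 by edgeR) in WT, from 2 to 7 counts to 13 to 24, though its paralog C1rb makes the count uncertain. C2 rose by 4.35 (SE 0.44, adjusted p = 5.56e-07 by edgeR) under the Il1rl1-/- label, from 1 to 3 counts to 23 to 46, and was not tested in WT, where it went from 1 to 6 counts to 7 to 20. Colec12, a scavenger receptor collectin, fell, at -5.06 (SE 0.24) in WT and -4.92 (SE 0.12) under the Il1rl1-/- label. Fcnb, which encodes ficolin B of myeloid cells, fell already from monocytes to pre-RPMs, at -2.31 (SE 0.41, adjusted p = 0.00416 by edgeR) in WT and -2.14 (SE 0.37, adjusted p = 0.00262 by edgeR) under the Il1rl1-/- label. In WT the filter kept Fcnb through the monocyte libraries alone, so it had to differ there once tested. Neutrophil markers were also lower in pre-RPMs (156.3 to 393.5 CPM) than in monocytes (759.4 to 2462 CPM). Their part in the Fcnb values was not tested. Fcnb was at 1 count over the 4 WT RPM libraries and at 0 in those labelled Il1rl1-/-, where it was at least 60.2-fold lower than in monocytes. From monocytes to RPMs, 4 of the 15 were tested in each genotype and all were called, 2 higher and 2 lower, with 3 of the 4 kept through 1 cell type alone in each genotype. Over all genes, 23.9% were called there in WT and 25.9% under the Il1rl1-/- label.

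Among the 14 regulators reported here, 3 were tested from pre-RPMs to RPMs in WT, with 1 higher and 2 not called, and 5 under the Il1rl1-/- label, with 3 higher and 2 not called. Over all genes, 24.7% were called in that step in WT and 26% under the label, and so few regulators cannot be set apart from that. C1qbp, a mitochondrial protein that also binds C1q, rose by 1.53 (SE 0.17) and 1.26 (SE 0.16). Cd59a, an inhibitor of the membrane attack complex, had 74 counts in the 4 WT RPM libraries against 2 in WT pre-RPMs, and 90 against 0 in those labelled Il1rl1-/-, where it was at least 28.5-fold higher in RPMs. Under that label the filter kept Cd59a through the RPM libraries alone, relative to pre-RPMs and to monocytes, so it had to differ once tested. Cd55, a decay accelerator of convertases, was the only one of the 14 called between genotypes, lower in pre-RPMs labelled Il1rl1-/- by a log2 difference of -1.68 (SE 0.28, adjusted p = 0.00762 by edgeR), at 7 to 23 counts against 23 to 43. Over all genes, 0.552% were called between genotypes in pre-RPMs. The NK, B cell, and basophil and mast cell markers were lower in the same libraries, as given above, and their part in this difference was not tested. It rose by 2.19 (SE 0.23) from pre-RPMs to RPMs under the Il1rl1-/- label and was at 0.89 (SE 0.20) in WT, and the difference between these changes was not called (1.32, adjusted p = 0.168 by edgeR). From monocytes to RPMs, 1 of 3 tested regulators was higher in WT and 2 of 4 under the Il1rl1-/- label, with the other 2 not called in each. Over all genes, 23.9% and 25.9% were called there.

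Among 9 other receptors, Cd93, once described as a C1q receptor, fell, at -5.02 (SE 0.31) in WT and -6.74 (SE 0.27) under the Il1rl1-/- label from pre-RPMs to RPMs. Under that label the filter kept Cd93 through the earlier cells alone, pre-RPMs or monocytes, so it had to differ once tested. Lrp1, which takes up many ligands together with calreticulin, rose by 1.16 (SE 0.14) in WT and was at 0.95 (SE 0.10) under the Il1rl1-/- label, under the fold threshold. Itgam encodes CD11b, on which the cells were sorted, so its fall in RPMs is no finding. Of the 9, 7 were tested in this step in WT, with 1 higher and 2 lower, and 8 under the Il1rl1-/- label, with 0 higher and 2 lower. Over all genes, 24.7% were called in this step in WT and 26% under the label. From monocytes to RPMs, 1 was higher and 2 lower in both genotypes, against 23.9% and 25.9% of all genes called. These counts are too small to set the list apart from all genes. Vsig4, the complement receptor of Kupffer cells, had 2 to 5 counts in WT RPMs and 1 to 5 in RPMs labelled Il1rl1-/-, and 0 or 1 in every other library. Itgax, which encodes CD11c of complement receptor 4, was called between genotypes in pre-RPMs, higher under the Il1rl1-/- label by 0.98 (SE 0.17, adjusted p = 0.00966 by edgeR), at 79.1 ± 9.73 against 40.2 ± 13.1 CPM (SD, n = 4). Dendritic cell markers summed to 20.5 to 48.9 CPM in WT pre-RPMs and to 38.4 to 58.4 CPM under the label, ranges that overlap. NK, B cell, and basophil and mast cell markers were lower under the label. The part of these markers in the Itgax value was not tested.

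**Figure D4:**
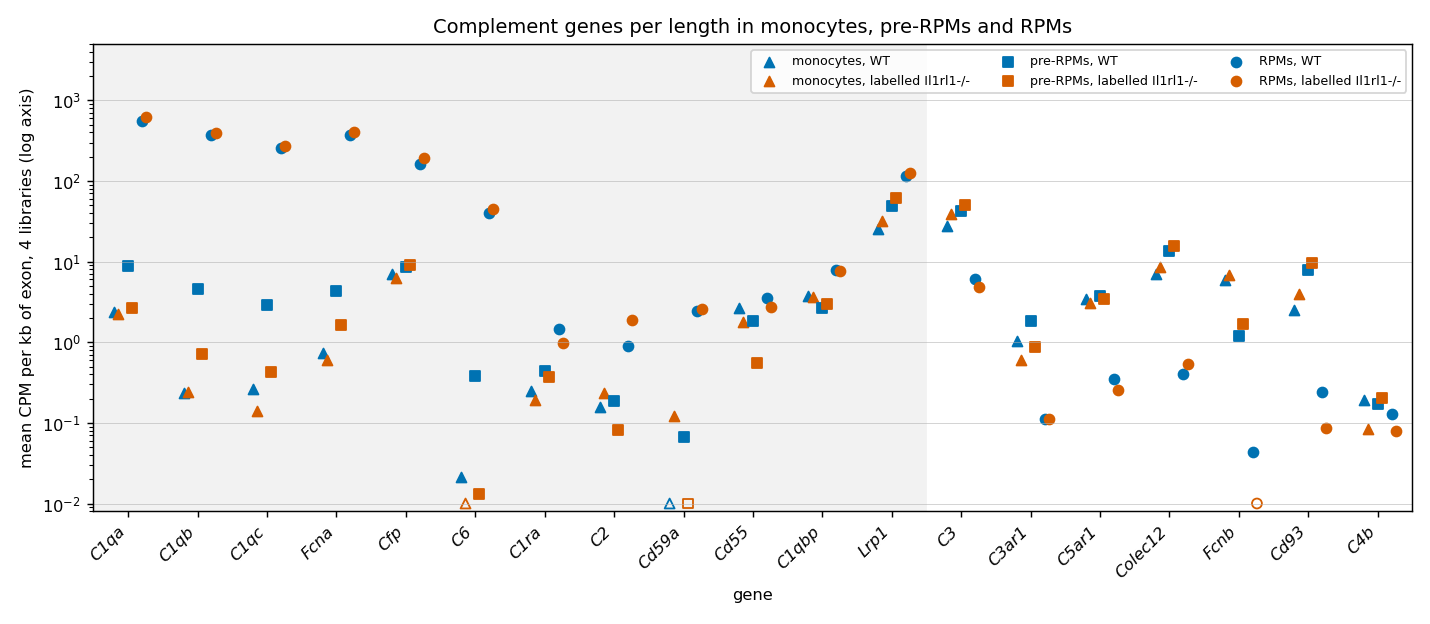
Mean CPM per kilobase of exon (log axis, n = 4 libraries per group) of the 9 members and 10 genes of the other complement lists in monocytes (triangles), pre-RPMs (squares), and RPMs (circles), with WT in blue, libraries labelled Il1rl1-/- in orange, and open symbols at the axis floor for means of 0. In the shaded part RPMs stand highest, with C1qa, Fcna, C1qb, and C1qc above 200 CPM per kilobase, and in the unshaded part C3, C3ar1, C5ar1, Colec12, Fcnb, and Cd93 stand lowest in RPMs.

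Per length, the order of the members in WT RPMs was C1qa (549 CPM per kilobase), C1qb (370), C1qc (257), Cfp (161.5), C6 (40.1), C3 (6.12), C5ar1 (0.346), C4b (0.130), and C3ar1 (0.110). In WT pre-RPMs it began with C3 (42.9), followed by C1qa (8.79), Cfp (8.65), C1qb (4.61), C5ar1 (3.71), C1qc (2.89), and C3ar1 (1.85), and ended with C6 (0.378) and C4b (0.172). That order rests on replicate 3. Without it, Cfp (6.83) stood above C1qa (5.04), and C5ar1 (3.70) and C3ar1 (1.65) stood above C1qb (1.18) and C1qc (0.631). C3 was thus the most abundant of the 9 in pre-RPMs of both genotypes, with 50.7 CPM per kilobase in those labelled Il1rl1-/-, and the sixth in WT RPMs.

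The genes whose log2 CPM over the 24 libraries was most like that of each member were listed as a description, since with 8 RPM libraries at 1 end any gene of RPMs gives a high correlation. For C1qa and C1qb the first was Fcna (Pearson's r = 0.991 and 0.996, n = 24 libraries), for C1qc Vcam1 (0.995), for C6 Postn (0.995), and for Cfp Mrc1 (0.995). Hmox1, the heme-degrading enzyme of erythrocyte-clearing macrophages, was second for C1qb (0.992), Cd5l second for C6 (0.995), and Mertk, a receptor for apoptotic cells, also among the top 3 for both C1qc (0.993) and C6 (0.994). C3 was most like Cybb, a subunit of the phagocyte NADPH oxidase (0.984), C5ar1 most like Rab27a (0.983), and C3ar1 most like Ptpn18 (0.922).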

How the data were processed

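RNA was measured in 24 sorted splenic samples. Reads were trimmed by the authors using cutadapt and aligned using STAR 2.5.1, after which read pairs were counted on the reverse strand over exons joined by gene name with featureCounts 1.6.2 and the Ensembl release 95 annotation of GRCm38. The deposited values are raw counts, neither normalized nor filtered. No molecular identifiers were counted, so reads are not independent molecules, and the intervals given cover counting error only. The library totals give a precision limit of 3 counts, the floor used for genes at 0. In edgeR 4.0.16, genes with few counts were removed by filterByExpr, libraries were scaled by TMM, and each pair of groups was fitted on its own 8 libraries with glmQLFit and glmQLFTest. Interactions used the 16 libraries of 4 groups. P-values were adjusted over all genes tested, with a prior count of 2 for log2 CPM. Calls followed the thresholds given above. The fit was tested on simulated data of WT RPMs against WT pre-RPMs (11239 genes), called at an adjusted p under 0.05 without a fold threshold. There, 147 of 200 genes changed 2-fold and 181 of 200 changed 4-fold were recovered, with 10 and 12 false calls. For pre-RPMs labelled Il1rl1-/- against WT pre-RPMs (10698 genes), 143 and 185 of 200 were recovered, with 12 false calls each. False calls made 6.09% to 7.74% of the calls in these simulations, more than the threshold of 0.05 allows for. Only 200 genes were changed, whereas the data gave 2776 calls between WT RPMs and WT pre-RPMs. The stricter rule used between cell types was not tested in this way.

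The mouse number names the same animal for the 3 cell types of a genotype, whereas same-numbered mice of the genotypes are different animals that share an index. Once group means were removed, libraries of the same number correlated at 0.118 or more across genes in every pair of monocyte libraries and at 0.149 or more in every pair of RPM libraries between genotypes, and at 0.045 or more in pre-RPMs. Libraries of different numbers reached 0.446, 0.23, and 0.034, so that in monocytes and RPMs some libraries correlated best with another number. Between cell types of a genotype, libraries of the same mouse correlated at -0.039 to 0.306, and libraries of different mice at up to 0.141. The main fits had no block, so the tests between cell types leave the shared animal out. Alternatives were DESeq2 1.42.0, RLE factors, library size alone, other filters on low counts, a single fit of all 24 libraries, a block for mouse number, each library left out in turn, and monocyte replicates 1 and 2 left out together, the last chosen after seeing their NK counts. The members, the gene lists, and the similarity rule (the 3 genes of highest Pearson's r for each member, without unnamed loci) were chosen with earlier results of these data known. All 9 members are named in every comparison, and other complement genes were named where a comparison called them. The complement genes named as near or at 0 counts, Vsig4, the genes near C1q, and values given beside a call for a group or step without one were chosen after their values were seen. One regulator of the lists is not reported here, and the counts for regulators do not cover it.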

Additional observations from a re-analysis of the deposited data

Results flagged for a closer look

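In 8 of the 54 sets of 4 libraries (9 genes in 6 groups), the highest library stood apart from the other 3 by more than Dixon's critical value. The critical value is set so that chance flags about 1 in 20 groups of normally distributed values, a rate that need not hold for low counts. A library with any count beside 3 libraries at 0 is always flagged, as C6 was in WT monocytes and in pre-RPMs labelled Il1rl1-/-. The 8 are thus a description, and whether they exceed chance cannot be read from them. WT pre-RPM replicate 3 accounted for 4 of the 8, with C1qb at 16.2 CPM against 0.788 to 2.14 in the other 3 libraries, C1qc at 18.6 CPM against 0.698 to 1.90, C6 at 4.66 CPM against 0 to 0.714, and Cfp at 24.5 CPM against 11.2 to 13.1. C1qa in monocytes labelled Il1rl1-/- was at 4.31 CPM in replicate 3, on 20 counts, against 1.65 to 1.72 CPM. The other 3 rested on 6 counts or fewer. C1qc was at 1.20 CPM in WT monocyte replicate 2 (6 counts), C6 at 0.300 CPM in WT monocyte replicate 4 (2 counts), and C6 at 0.186 CPM in replicate 4 of the pre-RPMs labelled Il1rl1-/- (1 count).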

How the results depend on the processing

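The 8 members called in each RPM comparison stayed called under DESeq2, RLE factors, library size alone, every gene, the single fit of 24 libraries, and the replicate block, and leaving out 1 library gave 7 to 8 in WT RPMs against monocytes, where C3 was lost. With at least 10 counts required in every library, fewer members could be tested, and 3 were called in WT RPMs against pre-RPMs and 2 in each of the other 3 RPM comparisons. From WT monocytes to WT pre-RPMs, 4 members were called with every gene of at least 1 count and 3 in the single fit. Calls over all genes rose there from 396 to 1094 and 772. Between genotypes in pre-RPMs, 1 was called with library size alone (C1qa, -1.50, edgeR's adjusted p = 0.0135), 5 with every gene, 1 with the replicate block (C1qa, -1.50, SE 0.32, edgeR's adjusted p = 0.0276), and 0 to 1 with a library left out. The 59 calls over all genes became 110 with library size alone, 265 with every gene, and 145 with the block. The block rests there on a shared mouse number and index, since not every pair of pre-RPM libraries correlated above 0.1, and it changed no other member's call. With every gene, the genotype difference in the change from pre-RPMs to RPMs was called for 4 members, while calls over all genes rose from 13 to 224.

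Several small values turned sign, none of them called. From WT monocytes to pre-RPMs, Cfp was -0.08 and C5ar1 -0.25 with library size alone, and without monocyte replicates 1 and 2 C3 was -0.01, Cfp -0.03, and C5ar1 -0.08. Leaving out 1 library gave -0.05 to 0.42 for Cfp and -0.01 to 0.27 for C5ar1. In the libraries labelled Il1rl1-/-, that step gave -0.06 to 0.35 for C5ar1 with 1 library left out, and -0.13 for C1qa, -0.14 for C3, and -0.27 for C5ar1 without monocyte replicates 1 and 2. Between genotypes in monocytes, leaving out 1 library gave -0.53 to 0.14 for C1qa and -0.38 to 0.03 for C5ar1. C3 was -0.15 without WT replicates 1 and 2, and C1qa 0.30, Cfp 0.07, and C5ar1 0.24 without replicates 1 and 2 of those labelled Il1rl1-/-. In pre-RPMs, C5ar1 was 0.09 with library size alone, and Cfp ranged from -0.07 to 0.40 with 1 library left out. The genotype difference in the change of Cfp from pre-RPMs to RPMs ranged from -0.15 to 0.31. The cause was not tested.

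Over all genes, calls between genotypes in monocytes, pre-RPMs, and RPMs numbered 7, 59, and 26, and 139, 265, and 272 with every gene, 27, 145, and 81 with the block, 22, 52, and 44 by DESeq2, 16, 17, and 26 in the single fit, and 3, 39, and 19 with at least 10 counts. Library size alone gave 11 in monocytes and 110 in pre-RPMs. In monocytes, 2 were called without WT replicates 1 and 2, 3 without replicates 1 and 2 of those labelled Il1rl1-/-, and 1 to 8 with a single library left out. From WT monocytes to pre-RPMs the 396 calls became 604 by DESeq2, 904 with library size alone, 1094 with every gene, 217 with at least 10 counts, 772 in the single fit, and 239 without monocyte replicates 1 and 2. In the libraries labelled Il1rl1-/-, the 543 became 1060, 264, and 321 with every gene, at least 10 counts, and those replicates left out. At least 10 counts left 1467, 1470, 1542, and 1536 of the 2776, 2769, 2973, and 3009 RPM calls. The 13 genotype differences in the change from pre-RPMs to RPMs became 23 by DESeq2, 6 with library size alone, 224 with every gene, 5 with at least 10 counts, 3 in the single fit, and 36 with the block. The 4 from monocytes to RPMs became 21 by DESeq2, 165 with every gene, 21 with the block, 2 with library size alone, 1 with at least 10 counts, 2 without replicates 1 and 2 of the monocytes labelled Il1rl1-/-, and 2 to 10 with a single library left out, and the 0 from monocytes to pre-RPMs became 78 with every gene. Depth limits C4b, the C1q genes in monocytes, and the receptors in RPMs, where single counts move the values.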
